A study of Mus musculus with 12 samples.

Results

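The C/EBP transcription factors measured here are the 5 genes Cebpa, Cebpb, Cebpd, Cebpe and Cebpg, taken by name from the 20696 genes that had at least 1 read in 12 mouse bone marrow libraries. RNA was profiled in Flk2- Lin-Sca-1+Kit+ cells, a sorted fraction that holds blood stem cells and early progenitors, in 4 genotypes with 3 libraries each. Wild-type is the reference, Mdmx-Tg animals have a transgene that makes extra MDMX, the p53 inhibitor encoded by Mdm4, and Pu.1-URE-/- lacks both copies of an upstream regulatory element (URE) that controls Spi1, which encodes the transcription factor PU.1. Mdmx-Tg/Pu.1-URE-/-, the double mutant, carries the transgene and lacks the element. The labels name no treatment, and the promoter of the transgene, the strain and the age of the animals are not given in the sources used here. Every library has a mouse number of its own, so the p-values set differences against a spread between single animals. That spread was estimated within the genotypes, over all 4 together.

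C/EBP proteins bind DNA as dimers through a basic region followed by a leucine zipper. In blood formation C/EBPα directs progenitors to the granulocyte and monocyte lineages, and C/EBPε acts later, when the genes of the secondary granules of neutrophils are switched on. C/EBPβ and C/EBPδ are induced by cytokines and inflammation, and C/EBPγ lacks a transactivation domain and acts mainly as a partner in heterodimers.

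The stretch of coding sequence below encodes the part of the basic region that contacts DNA and starts at the same residue of each protein. It is shown to set the 5 genes side by side in this part. A count of equal codons does not tell which sites a protein reads, and binding was not tested. Each line runs 5′ to 3′ on the coding strand and was read from the GENCODE M21 transcripts (GRCm38). The places are chr7:35120286-35120348 (+) for Cebpa, chr2:167689706-167689768 (+) for Cebpb, chr16:15887916-15887978 (+) for Cebpd, chr14:54710692-54710754 (-) for Cebpe and chr7:35050570-35050632 (-) for Cebpg. Capitals mark codons that encode another residue than Cebpa does.
Cebpa: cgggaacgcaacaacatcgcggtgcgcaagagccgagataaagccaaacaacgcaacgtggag
Cebpb: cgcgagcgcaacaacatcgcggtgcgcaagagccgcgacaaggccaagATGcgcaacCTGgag
Cebpd: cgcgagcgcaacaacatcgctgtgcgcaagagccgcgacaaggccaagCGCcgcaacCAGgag
Cebpe: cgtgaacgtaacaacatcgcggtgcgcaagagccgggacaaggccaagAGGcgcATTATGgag
Cebpg: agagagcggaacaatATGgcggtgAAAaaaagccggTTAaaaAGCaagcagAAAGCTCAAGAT
Cebpb and Cebpd encode the same residue as Cebpa in 19 of the 21 codons, Cebpe in 18 and Cebpg in 13. At the level of bases, 53, 52, 51 and 35 of 63 are the same as in Cebpa, in that order. Cebpg is thus the member whose basic region differs most, with 8 other residues.

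Depth ran from 47271286 to 55067735 estimated reads per library. Mdm4 lay at 163 to 535 CPM (reads per 1000000 after scaling by trimmed mean of M values, TMM) in the 6 transgenic libraries and at 35.8 to 93.9 CPM in the 6 others. Spi1 was lowest in the double mutants, at 3.48, 1.84 and 0.0198 CPM, where the 9 other libraries had 3.69 to 38.0 CPM. The double mutant thus overlapped with no other genotype, being lower as 10.8% of genes were against Wild-type, 7.25% against Mdmx-Tg and 8.95% against Pu.1-URE-/-. No such difference passed the test (unadjusted p 0.0279 to 0.0456, edgeR adjusted p 0.209 to 0.453). Pu.1-URE-/- itself had 8.73 to 23.9 CPM and overlapped with Wild-type and Mdmx-Tg. Of the genes of the sort, Kit was at 165 to 328 CPM and Ly6a (Sca-1) at 15.0 to 97.2 CPM in the 12 libraries. Flt3 (Flk2), which the sort selects against, was read in every library at 5.82 to 53.7 CPM. For 10 markers of plasma cells and mature B cells the summed level ran from 531 to 25869 CPM within Wild-type alone. Ddx3y, a Y-linked gene, was at 72.9 to 94.1 CPM in Wild-type 2 and the double mutants 1 and 3, and at no more than 0.0452 CPM in the rest, so sex is not balanced over the genotypes.

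All 5 C/EBP genes passed the filter on low counts. Cebpb did so with at most 53 reads in a library and reached the minimum of 10 reads only in Mdmx-Tg 1 and the 6 libraries without the element. It thus entered the test through the groups where it is higher, and its values are given as a description.

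Compared per length of transcript, as transcripts per 1000000 (TPM), Cebpg was the most abundant member in every library with the element, at 3.56 to 19.7 TPM. In the 6 libraries without the element Cebpe took that place, at 87.6 to 897 TPM. In Wild-type the means ran from Cebpg (8.05 TPM) through Cebpe (1.61), Cebpa (0.649) and Cebpd (0.303) to Cebpb (0.0192). The libraries of Cebpe (0 to 2.93 TPM) overlapped with those of Cebpa (0.569 to 0.777 TPM), so the order of these neighbours is within their spread. Cebpd, at 0.124 to 0.552 TPM, lay just under Cebpa, and Cebpb was lowest at 0 to 0.0395 TPM. In Pu.1-URE-/- the order of the means was Cebpe (650 TPM), Cebpa (17.0), Cebpg (5.07), Cebpd (4.83) and Cebpb (0.579). There Cebpg and Cebpd overlapped, at 4.17 to 6.33 and 2.66 to 8.52 TPM, while Cebpa stood above both at 13.4 to 19.3 TPM. In Mdmx-Tg/Pu.1-URE-/- Cebpe again led at 183 TPM, followed by Cebpg (11.0) and Cebpa (10.8), whose libraries overlapped. Mdmx-Tg kept the Wild-type order at its top, Cebpg at 14.9 TPM, but Cebpa (3.66 TPM, lowest library 3.41) was above Cebpe (0.960 TPM, highest library 1.55).

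**Figure D1:**
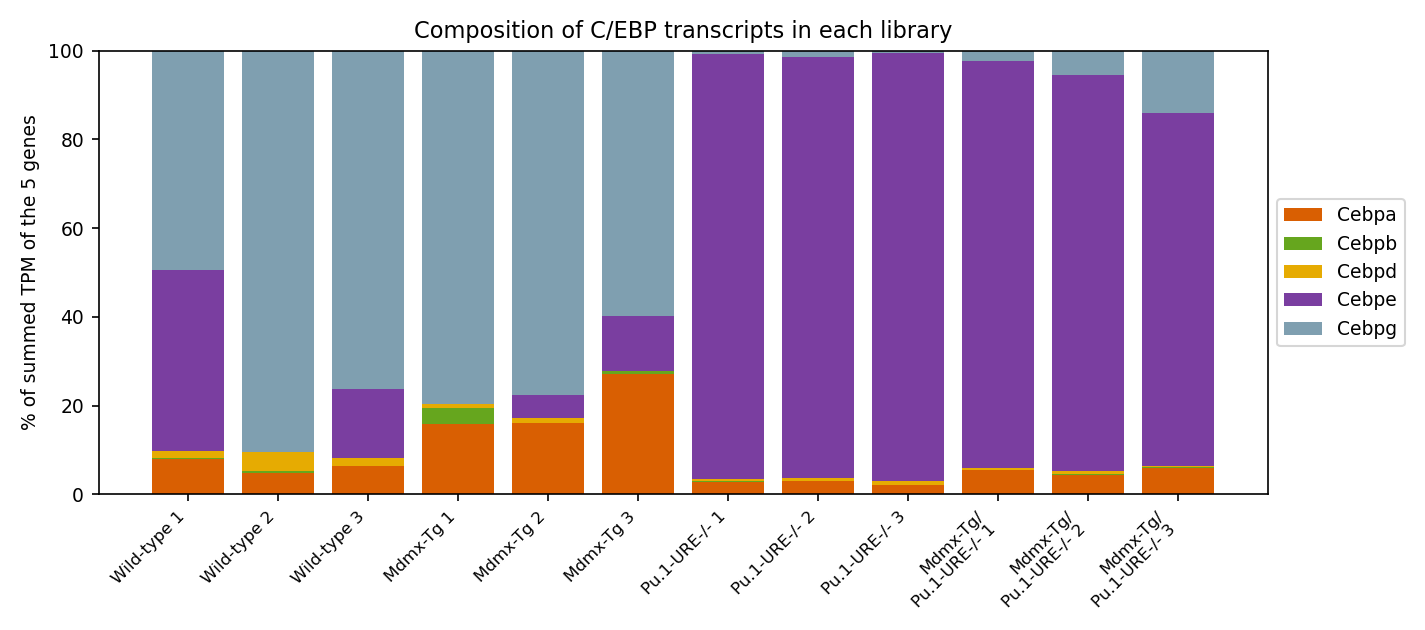
Share of each C/EBP gene in the summed TPM of the 5 genes (vertical axis, percent), 1 bar for each of the 12 libraries. Cebpg takes 49.4% to 90.4% of the sum in the libraries with the element, and Cebpe takes 79.5% to 96.5% in those without it.

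As a share of the summed TPM of the 5 genes, Cebpe made up 95.9%, 94.8% and 96.5% in Pu.1-URE-/- 1 to 3. Its share was 91.8%, 89.3% and 79.5% in the 3 double mutants. It made up 40.7%, 0% and 15.4% in Wild-type and 0%, 5.24% and 12.3% in Mdmx-Tg. The plot of shares shows the 6 libraries without the element as a block of their own. Summed over the 5 genes, the level was 7.21 to 25.4 TPM with the element and 110 to 929 TPM without it. With Cebpe left out, the other members came to 4.27 to 24.1 TPM with the element and 20.5 to 32.7 TPM without it, and these ranges overlap. Most of the difference in the sum between these sets of libraries was Cebpe.

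**Figure D2:**
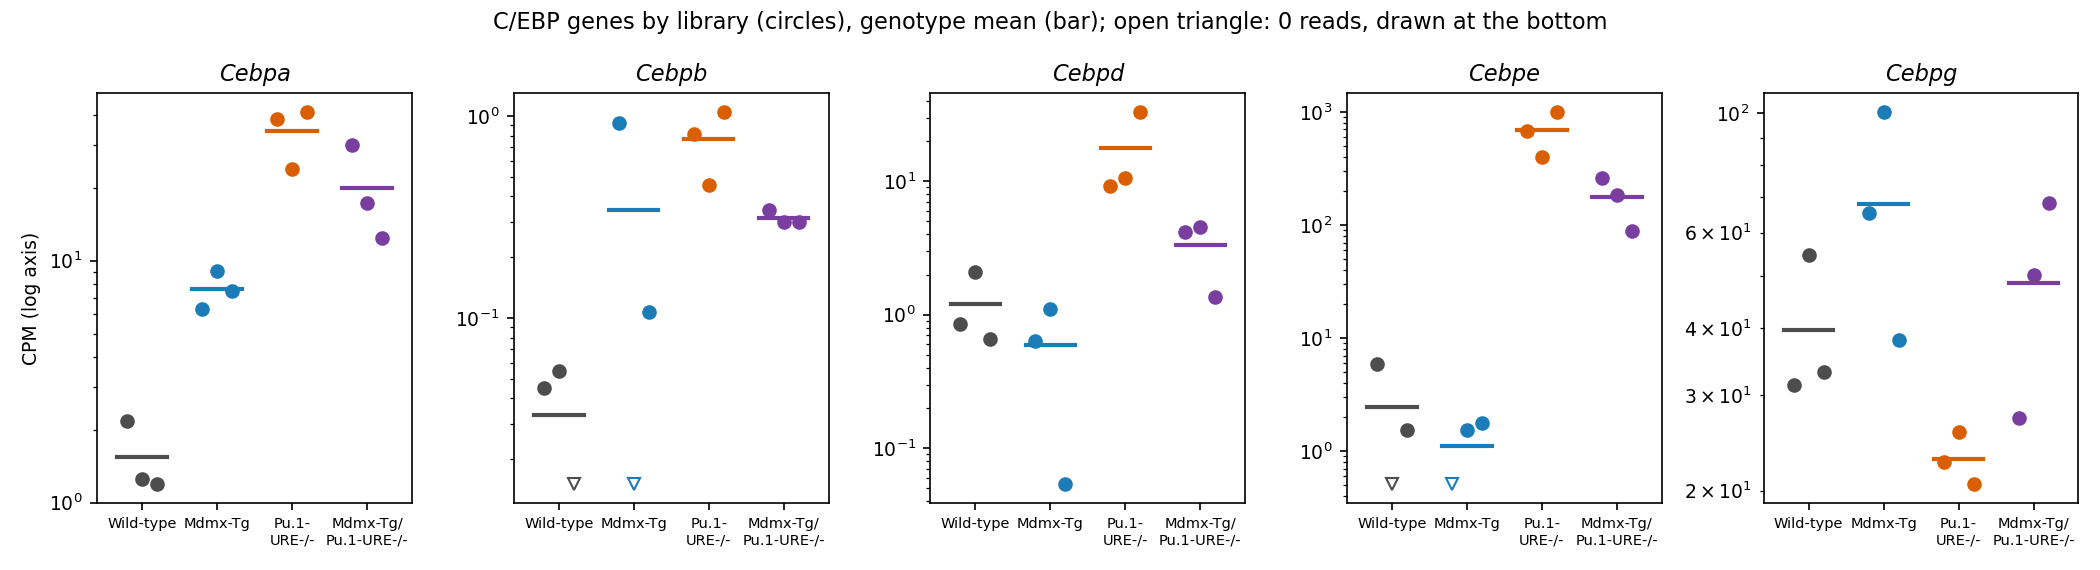
TMM-scaled reads per 1000000 (CPM, log axis, a scale of its own in each panel) of the 5 C/EBP genes in the 4 genotypes, with 1 circle per library and a bar at the genotype mean. An open triangle is a library with 0 reads, drawn at the bottom of the panel. All 6 libraries without the element lie above all 6 others for Cebpa and Cebpe, as for 4.89% of the genes tested.

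Cebpa (ENSMUSG00000034957.10, chr7:35119293-35121928, + strand) encodes the factor of granulocyte and monocyte commitment. Wild-type 1 to 3 had 2.17, 1.25 and 1.19 CPM of it, and Mdmx-Tg 1 to 3 had 6.30, 9.05 and 7.48 CPM. Pu.1-URE-/- had 38.3, 23.8 and 41.1 CPM, and Mdmx-Tg/Pu.1-URE-/- had 29.9, 17.3 and 12.4 CPM. Wild-type was lowest in all 3 libraries, Mdmx-Tg was next without touching any other group, and the 2 genotypes without the element were highest and overlapped with each other. Those values rest on 69 to 2084 reads per library. In bulk RNA, more cells of a kind and more RNA per cell cannot be told apart.

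Loss of the element in the absence of the transgene asks how the C/EBP genes depend on this control of Spi1. In Pu.1-URE-/- against Wild-type, 2 of the 5 members rose, Cebpa and Cebpe, and none fell, where 4.71% of the 15012 genes tested were called in either direction, 3.84% higher and 0.866% lower. Cebpa rose 22.4-fold, a log2 change of 4.48 ± 0.47 (SE), between means of 1.54 ± 0.547 and 34.4 ± 9.27 CPM (SD, n = 3 each; edgeR quasi-likelihood test, Benjamini-Hochberg adjusted p = 0.000581). Its p-value was number 28 in order among the genes tested. Cebpa, Cebpd and Cebpe had groups that did not overlap upwards in this comparison, and Cebpg downwards. Of all genes, 15.9% did so upwards and 13.7% downwards. The groups of Cebpb did not overlap either, but Cebpb entered the test through the groups where it is higher, so this is a description. The call for Cebpa held in all 23 alternatives, with a log2 change between 4.18 and 4.82.

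Cebpe (ENSMUSG00000052435.7, chr14:54710360-54712174, - strand) had the widest range of the 5 genes. Its level was 674, 400 and 997 CPM in Pu.1-URE-/- 1 to 3, while the double mutant had 261, 184 and 87.9 CPM. Wild-type had 5.87, 0 and 1.53 CPM, and Mdmx-Tg had 0, 1.55 and 1.77 CPM. The 6 libraries without the element were all far above the 6 others. A count of 0 allows up to 3 reads, which is 0.0575 CPM in Mdmx-Tg 1 and 0.0544 CPM in Wild-type 2, while the 4 other libraries with the element had 79 to 260 reads.

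Cebpe rose 281-fold in Pu.1-URE-/- against Wild-type, a log2 change of 8.14 ± 1.75 between means of 2.47 ± 3.05 and 690 ± 299 CPM (edgeR adjusted p = 0.0229). The low group ran from 0 to 260 reads and the SE is wide. The call was lost without Wild-type 3 (adjusted p = 0.0995), without Pu.1-URE-/- 1 (0.0593), without Pu.1-URE-/- 3 (0.0678), without Wild-type 1, Mdmx-Tg 2 and double mutant 3 together (0.0546) and with the series of mouse numbers as a block (0.0955). The log2 change was 7.55 to 10.58 over all alternatives.

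Cebpd (ENSMUSG00000071637.5, chr16:15887286-15891031, + strand) was highest in Pu.1-URE-/-, with 9.18, 10.7 and 32.9 CPM, where Wild-type had 0.858, 2.10 and 0.658 CPM. The double mutant had 4.14, 4.54 and 1.35 CPM, and Mdmx-Tg had 0.632, 1.10 and 0.0538 CPM. Pu.1-URE-/- lay above every other group, with Pu.1-URE-/- 3 at the top, while the double mutant overlapped with Wild-type. The log2 change in Pu.1-URE-/- against Wild-type was 3.86 ± 1.07 and missed the threshold (edgeR adjusted p = 0.0668). It was called in 3 of 23 alternatives: by DESeq2 (adjusted p = 0.000663), in a fit of only these groups (0.0317) and without Mdmx-Tg 3 (0.0282).

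Cebpb (ENSMUSG00000056501.3, chr2:167688915-167690418, + strand) was near the limit of detection throughout. Its reads numbered 2, 3 and 0 in Wild-type, 48, 0 and 6 in Mdmx-Tg, 40, 26 and 53 in Pu.1-URE-/- and 17, 16 and 15 in the double mutant. That is at most 1.04 CPM in any library. The 6 libraries without the element had 15 to 53 reads and overlapped with Mdmx-Tg 1 alone among the 6 others. The log2 change in Pu.1-URE-/- against Wild-type was 4.47 ± 1.79 (edgeR adjusted p = 0.195).

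Cebpg (ENSMUSG00000056216.9, chr7:35046422-35056573, - strand) is a neighbour of Cebpa, 62719 bases away and on the other strand. Wild-type had 31.4, 54.5 and 33.2 CPM of it and Mdmx-Tg had 65.2, 100.3 and 38.0 CPM. The double mutant had 27.3, 50.0 and 68.0 CPM, and Pu.1-URE-/- had 22.6, 25.7 and 20.6 CPM. Pu.1-URE-/- was the lowest group and overlapped with none of the others, and the remaining 3 genotypes overlapped with each other. The log2 change in Pu.1-URE-/- against Wild-type was -0.79 ± 0.40 (edgeR adjusted p = 0.306). The neighbours therefore took opposite signs in this comparison, although the difference for Cebpg did not pass the test.

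**Figure D3:**
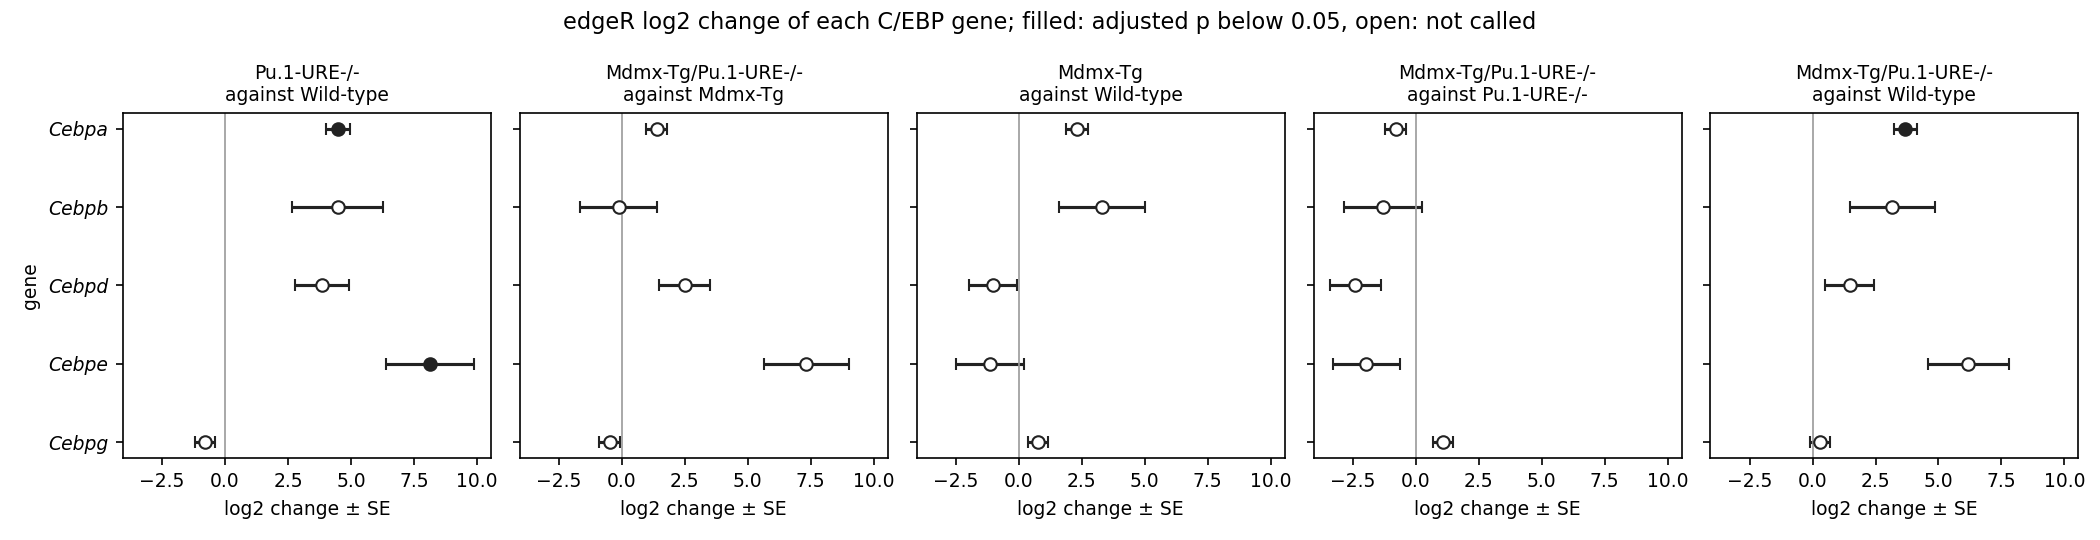
Log2 change of each C/EBP gene in 5 comparisons (horizontal axis, log2 of the ratio of the groups, with bars for 1 SE), from the edgeR fit over 12 libraries. Filled points have an adjusted p under 0.05: Cebpa and Cebpe in Pu.1-URE-/- against Wild-type and Cebpa in Mdmx-Tg/Pu.1-URE-/- against Wild-type.

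The same loss of the element was then read among animals that carry the transgene. In Mdmx-Tg/Pu.1-URE-/- against Mdmx-Tg no member was called by edgeR, where 2.32% of genes were called (1.67% higher, 0.646% lower). Cebpe was nearest, with a log2 change of 7.32 ± 1.69 between means of 1.11 ± 0.967 and 178 ± 86.6 CPM (adjusted p = 0.0506), and it passed in 7 of 23 alternatives. Cebpa had a log2 change of 1.38 ± 0.41, between 7.61 ± 1.38 and 19.9 ± 9.04 CPM (edgeR adjusted p = 0.128). Its groups did not overlap, nor did those of Cebpe and Cebpd, all 3 higher, where 11.9% of genes did so. Cebpd had a log2 change of 2.49 ± 1.01 (edgeR adjusted p = 0.246), Cebpg of -0.49 ± 0.40 (0.609) and Cebpb of -0.13 ± 1.54 (0.986). By unadjusted p under 0.05, 16.9% of all genes passed in this comparison and 3 of the 5 members did (Cebpa, Cebpd and Cebpe). DESeq2 called Cebpa (adjusted p = 0.0312) and Cebpe (0.000928), and limma-voom called neither.

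Mdmx-Tg was compared with Wild-type to see what the transgene does where the element is present. No gene was called by edgeR or limma-voom (0%), 10.5% of genes had an unadjusted p under 0.05, and DESeq2 called 329. Mdm4, which encodes the product of the transgene, had a log2 change of 2.59 ± 0.48 and was not called either (edgeR adjusted p = 0.259). The absence of calls is thus no sign that the transgene had no effect. Cebpa was 4.95-fold higher in the fitted means, a log2 change of 2.31 ± 0.43 that missed the threshold (unadjusted p = 0.000219, edgeR adjusted p = 0.259; DESeq2 adjusted p = 4.36e-05). All 3 Mdmx-Tg libraries were above all 3 Wild-type libraries, by reads of 329 to 461 against 69 to 96; 6.61% of genes had such groups upwards. Its p-value was number 12 in order of the 15012 genes tested. The other members had log2 changes of 3.30 ± 1.70 (Cebpb), 0.77 ± 0.40 (Cebpg), -1.02 ± 0.97 (Cebpd) and -1.14 ± 1.34 (Cebpe), with edgeR adjusted p of 0.518 to 0.847. That of Cebpb rested on the 48 reads of Mdmx-Tg 1 and came to 0.68 without it.

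In the double mutant against Pu.1-URE-/-, which shows the transgene where the element is absent, no gene was called by edgeR or limma-voom either (0%). Here 10.7% of genes had an unadjusted p under 0.05, and DESeq2 called 329. Mdm4 had a log2 change of 1.59 ± 0.46 and again was not called (edgeR adjusted p = 0.406). Cebpa, Cebpb, Cebpd and Cebpe had log2 changes below 0, at -0.79 ± 0.41, -1.30 ± 1.56, -2.39 ± 1.00 and -1.96 ± 1.32, and Cebpg had 1.08 ± 0.40 (edgeR adjusted p 0.413 to 0.829). The groups of Cebpd, Cebpe and, as a description, Cebpb did not overlap and were lower in the double mutant, as 8.95% of genes were. Those of Cebpg did not overlap and were higher, as 9.89% of genes were. The ratio of Cebpe to Cebpa in TPM was 33.8, 32.1 and 46.6 in Pu.1-URE-/- 1 to 3 and 16.8, 20.2 and 13.5 in the double mutant, so these groups did not overlap. It was 0 to 5.16 in the 6 libraries with the element.

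Both genetic changes together, Mdmx-Tg/Pu.1-URE-/- against Wild-type, gave 1 called member, Cebpa, where 3.34% of genes were called, 2.47% higher and 0.873% lower. Cebpa rose 12.9-fold, a log2 change of 3.69 ± 0.45 (edgeR adjusted p = 0.00226), and this call held in all 23 alternatives. Cebpe had a log2 change of 6.18 ± 1.60 (adjusted p = 0.0659) and was called in 3 of 23. Cebpb had 3.17 ± 1.69 (0.356), Cebpd 1.47 ± 0.97 (0.485) and Cebpg 0.29 ± 0.40 (0.787). Since this comparison shares its libraries with those above, it adds no separate evidence to them.

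The interaction asks whether the transgene changed expression by a different factor with and without the element. For Cebpa it was -3.10 ± 0.59 on the log2 scale, the difference between 2.31 with the element and -0.79 without it. Its unadjusted p was 0.000265, number 5 in order of all genes, but edgeR called no gene (Cebpa adjusted p = 0.680). At an unadjusted p under 0.05 5.8% of genes passed, DESeq2 called 194 genes, Cebpa among them (adjusted p = 0.000132), and limma-voom called none. The others had adjusted p of 0.867 to 1.

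The reads of Cebpa were given by the authors' Salmon run almost wholly to 1 of its annotated transcripts. Cebpa-202, with 2 exons, took 97.1% of them, and the single-exon Cebpa-201, which encodes the full protein, took 2.92%, or 0 to 75.5 reads per library and 0 in Wild-type 1 to 3 and Mdmx-Tg/Pu.1-URE-/- 3. Cebpa-202 lacks 475 bases of Cebpa-201 (chr7:35119772-35120246), all of them in the coding region of Cebpa-201, a length that is no multiple of 3. That missing part has 76.8% G and C against 59.5% in the rest, and the basic region printed above starts after it, at 35120286. Whether the bone marrow RNA itself lacks those bases was not tested, since the deposited values are sums per transcript. Cebpb-201 and Cebpe-201 are the only transcripts of their genes in the files, and Cebpd-201 and Cebpg-202 took 99.9% of the reads of theirs. The reads and CPM per gene do not depend on this split. TPM of Cebpa, and the shares and ratios made from it, do, since Cebpa-202 has 2161 bases and Cebpa-201 has 2626.

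Over the 12 libraries, the log2 CPM of Cebpa and Cebpe had a Pearson r of 0.807, and 0.547 after the genotype means were subtracted. Cebpg was negatively related to each of the 4 others, from -0.359 with Cebpa to -0.604 with Cebpe. With the genotype means subtracted, r stayed negative with Cebpa (-0.51), Cebpb (-0.216) and Cebpe (-0.45) and was 0.397 with Cebpd. The libraries share their genotypes, so these values describe the data and are no test. Among 9586 protein-coding genes, those most like Cebpa were Ica1 (r = 0.967), Cemip2 (0.966), Cited2 (0.965) and Mylip (0.948). Those most like Cebpe were Vsir (0.966), Fam221b (0.959), Adgrg3 (0.955) and Lrg1 (0.954). Canx (0.967), St13 (0.966), Set (0.965) and Zfp317 (0.965) were most like Cebpg. For Cebpd the closest were Slc22a15 (0.924), Sec23b (0.918), Ubxn11 (0.915) and B3gnt2 (0.910), and for the sparse counts of Cebpb they were Fbxw11 (0.944), Rbl1 (0.927), Ugdh (0.925) and Paf1 (0.915).

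Genes that C/EBP factors are known to switch on in granulocyte precursors were high in the same libraries as Cebpa and Cebpe. Of 14 such progenitor-stage targets, 10 rose in Pu.1-URE-/- against Wild-type and none fell, where 3.84% of all genes were called higher. Cebpe, itself on that list, was 1 of the 10. So was Fcnb, a ficolin gene with reads in only 2 of the 6 libraries with the element, which entered the test through the libraries where it is high. The counts that include it are a description. Hp (haptoglobin) rose 146-fold to 1183 ± 544 CPM (adjusted p = 0.000181), Elane (neutrophil elastase) 74.7-fold, Ctsg (cathepsin G) 27.9-fold to 4387 ± 1117 CPM (0.000473) and Gfi1, a repressor that acts beside the C/EBP factors in neutrophil formation, 21.2-fold. The list's median log2 change was 4.29 against -0.03 over all genes tested. The 4 members that were not called were Csf3r, Csf2ra, Il6ra and Klf5. Csf3r, the receptor for G-CSF and a classic C/EBPα target, was at 24.0, 19.5 and 9.90 CPM in Wild-type and at 210, 116 and 197 CPM in Pu.1-URE-/-, groups that did not overlap, but missed the threshold (log2 change 3.29 ± 0.87, edgeR adjusted p = 0.0555).

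The same list had 8 called higher in Mdmx-Tg/Pu.1-URE-/- against Mdmx-Tg (median log2 change 3.31, all genes 0.03; 1.67% of all genes called higher) and 9 in Mdmx-Tg/Pu.1-URE-/- against Wild-type (3.04, all genes 0.04; 2.47% called higher), and none lower. In Mdmx-Tg against Wild-type edgeR, DESeq2 and limma-voom called none of the 14, and the median was -0.24. None had an unadjusted p under 0.05, where 10.5% of all genes did. Cebpa was higher in those 3 Mdmx-Tg libraries, a difference that edgeR did not call (adjusted p = 0.259). The summed level of the list was 1194 to 1897 CPM in Mdmx-Tg and 1518 to 2787 CPM in Wild-type, which overlap. Mpo alone was at 706 ± 340 CPM in Mdmx-Tg and 1152 ± 569 in Wild-type, a large part of these sums. Whether the level of Cebpa bears on these targets was not tested. The sum was 29870 to 58400 CPM in Pu.1-URE-/- and 11478 to 32376 CPM in the double mutant. In the double mutant against Pu.1-URE-/- edgeR and limma-voom called none and DESeq2 called 1. There 5 had an unadjusted p under 0.05, against 10.7% of all genes. A log2 change of 0 or below was found for 13 of the 14 (median -1.08).

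**Figure D4:**
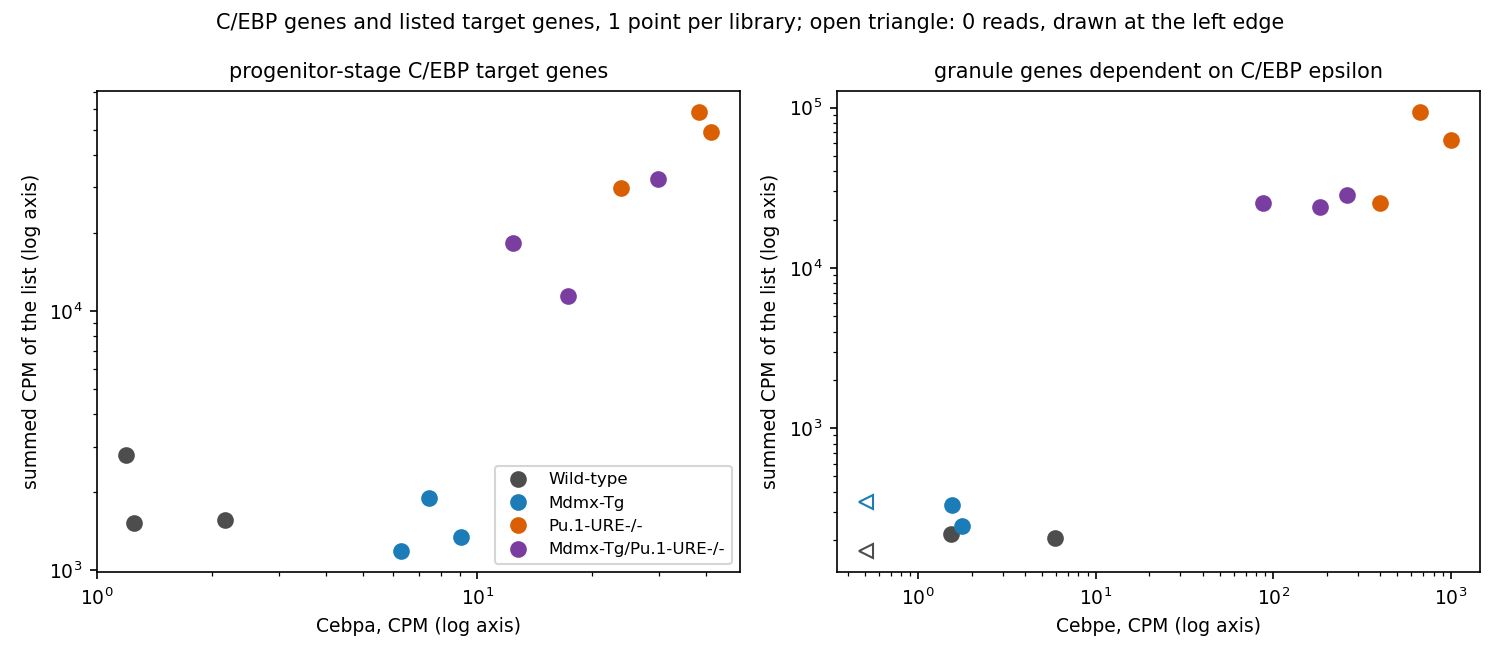
Left, summed CPM of 14 progenitor-stage C/EBP target genes against Cebpa; right, summed CPM of 12 granule genes known to need C/EBPε against Cebpe (all axes log, CPM). Each point is a library coloured by genotype, and an open triangle is a library with 0 reads of Cebpe, drawn at the left edge. The 3 Mdmx-Tg libraries lie to the right of Wild-type in Cebpa and at overlapping heights in the targets. In the libraries with the element, Lyz2 makes up nearly all of the granule sum.

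Granule genes known to need C/EBPε differed in the same comparisons. Of 12 listed, 8 passed the low-count filter, and all 8 rose in Pu.1-URE-/- against Wild-type, where 3.84% of all genes were called higher. Several of them have almost no reads in Wild-type and passed the filter only through the libraries where they are high, so the count of 8 is a description. Camp, the gene of cathelicidin, had means of 17604 ± 11312 CPM in Pu.1-URE-/- and 8288 ± 663 in the double mutant, against 0.699 ± 0.481 in Wild-type and 0.305 ± 0.235 in Mdmx-Tg. S100a8 rose 1036-fold to 7603 ± 4177 CPM (edgeR adjusted p = 0.000198). S100a8 and S100a9 encode the subunits of calprotectin and are counted in this list, although calprotectin is a protein of the cytosol. In Mdmx-Tg/Pu.1-URE-/- against Mdmx-Tg 5 rose (Camp, S100a8, Ngp, Lcn2 and Ltf), where 1.67% of all genes were called higher. Against Wild-type 4 did (Camp, S100a8, Ngp and Lcn2), where 2.47% were. Ltf had 0 reads and Lcn2 had 1 in the 3 Mdmx-Tg libraries, so these counts too are a description. The transgene comparisons had none called by edgeR, limma-voom or DESeq2. In the double mutant against Pu.1-URE-/- 2 had an unadjusted p under 0.05, where 10.7% of all genes did. None had in Mdmx-Tg against Wild-type, where 10.5% of all genes did.

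The remaining 4 granule genes were close to absent in both sets of libraries. Mmp8 and Mmp9, proteases of the gelatinase and secondary granules, had 0 reads in all 6 libraries without the element. Chil3 had 24 reads in 1 of them. In the 6 libraries with the element, Mmp8, Mmp9 and Chil3 had 6, 1 and 4 reads, each in 1 library. Bpi had no read anywhere. Cebpe was at 87.9 CPM or more in the 6 libraries without the element. The summed level of the list was 25352 to 93330 CPM in Pu.1-URE-/- and 24100 to 28582 CPM in the double mutant, but 245 to 347 CPM in Mdmx-Tg and 172 to 218 CPM in Wild-type. Lyz2 alone was at 239 to 343 CPM in Mdmx-Tg and 164 to 202 CPM in Wild-type. The granule sums with the element, and the r values made from them, thus describe mainly Lyz2. Within the 6 libraries without the element, log2 Cebpe and the log2 sum had r = 0.776, and within the 6 with it r = -0.171. Cebpa and the progenitor-stage list had r = 0.877 and -0.511 in the same sets. In the crossed pairs, Cebpa and the granule list had 0.782 and 0.838, and Cebpe and the progenitor-stage list had 0.818 and 0.303. Each set holds 2 genotypes, so these are descriptions only.

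The promoters below are of genes that were high in the libraries without the element, and all of those printed hold a match to a motif. They show the letters that C/EBP factors and PU.1 are known to bind. Each holds the 250 bases before the annotated start, 5′ to 3′ on the strand of the gene, from RefSeq (GRCm38.p6): chr7:35119043-35119292 (+) for Cebpa, chr9:110419558-110419807 (+) for Ngp and chr10:79886062-79886311 (+) for Elane. Capitals mark matches to TTGCNNAA (a C/EBP site), TTGCG (a shorter part of one) or GAGGAAGT (a PU.1 site), on either strand, and a site that holds both C/EBP motifs counts for each.
Cebpa: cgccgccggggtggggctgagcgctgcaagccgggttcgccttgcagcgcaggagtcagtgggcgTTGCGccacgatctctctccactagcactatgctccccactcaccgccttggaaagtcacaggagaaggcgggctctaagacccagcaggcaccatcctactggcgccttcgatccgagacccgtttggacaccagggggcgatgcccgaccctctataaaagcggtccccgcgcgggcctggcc
Ngp: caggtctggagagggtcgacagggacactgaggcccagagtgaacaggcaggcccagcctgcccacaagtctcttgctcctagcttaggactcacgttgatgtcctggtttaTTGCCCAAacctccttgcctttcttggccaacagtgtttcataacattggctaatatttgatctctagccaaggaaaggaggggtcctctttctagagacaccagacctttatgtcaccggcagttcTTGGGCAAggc
Elane: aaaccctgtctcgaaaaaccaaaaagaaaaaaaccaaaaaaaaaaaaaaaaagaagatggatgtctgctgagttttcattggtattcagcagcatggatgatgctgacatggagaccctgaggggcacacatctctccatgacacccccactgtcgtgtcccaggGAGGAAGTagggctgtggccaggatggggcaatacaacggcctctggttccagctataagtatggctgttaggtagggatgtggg
The promoter table held Cebpa, Cebpb and Cebpg of the 5 members, and Cebpd and Cebpe were not matched. Cebpa has TTGCG 185 bases before its start, and Cebpb and Cebpg have no match to these 3 motifs. In Ngp, the gene of neutrophilic granule protein, TTGCNNAA lies 138 and 11 bases before the start. In Elane GAGGAAGT lies 85 bases before it. Camp, Ctsg and Lyz2, also called higher in Pu.1-URE-/- against Wild-type, have no match to these 3 motifs in their 250 bases. The counts that follow searched the whole table entry, 300 bases with the first 50 after the start. Among the 11 granule genes matched, 5 hold TTGCNNAA (Lcn2, Ltf, Mmp8, Ngp and S100a9), against 10.8% of the 32851 promoters of the same length. Mmp8 is among them and had 6 reads with the element and none without it. Of 11 progenitor-stage targets, 3 hold TTGCNNAA (Fcnb, Gfi1 and Ms4a3, the last in the bases after its start) and 3 hold GAGGAAGT (Elane, Mpo and Prtn3). GAGGAAGT was also in 3 of the granule genes (Itgb2l, Mmp8 and S100a8) and in 3.2% of all promoters. TTGCG was in 17.4% of all promoters, in 2 of the progenitor-stage genes and in 1 granule gene.

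Among 16 transcription factors known to act upstream of Cebpa, Gfi1 and Id2 rose in Pu.1-URE-/- against Wild-type and none fell, and the median log2 change was -0.00. Of all genes, 3.84% were called higher and 0.866% lower there. Gfi1 and Klf5 are also on the list of progenitor-stage targets, so the Gfi1 call is the same as the one given for that list. In Pu.1-URE-/- against Wild-type 10 of the 16 had an unadjusted p under 0.05, against 19.8% of all genes. DESeq2 called 6 and limma-voom 3, counts given as a description, without a share of all genes. Id2, an inhibitor of E proteins, rose 4.56-fold to 47.1 ± 19.4 CPM (edgeR adjusted p = 0.0381). Gfi1 rose in Mdmx-Tg/Pu.1-URE-/- against Mdmx-Tg 9.20-fold (0.00416), and against Wild-type 14.7-fold (0.0019). Id1 was the other gene called against Mdmx-Tg, with 5.66 ± 3.62 CPM in the double mutant and no read in the 3 Mdmx-Tg libraries. It had reads in only 2 of the 6 libraries with the element and entered the test through the others, so its call is a description. In the double mutant against Mdmx-Tg and against Wild-type, 1.67% and 2.47% of all genes were called higher. In each of these comparisons 7 of the 16 had an unadjusted p under 0.05, where 16.9% and 18.5% of all genes did. DESeq2 called 4 against Mdmx-Tg and 5 against Wild-type, and limma-voom called 1 and 2. In Mdmx-Tg against Wild-type none was called by edgeR, 3 had an unadjusted p under 0.05 (10.5% of all genes did) and DESeq2 called 1. In the double mutant against Pu.1-URE-/- none was called by edgeR or DESeq2, and 3 had an unadjusted p under 0.05 (10.7% of all genes did).

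Genes whose products control C/EBP mRNA or protein, 11 in all, gave no call by edgeR in any comparison, with 1 to 4 below an unadjusted p of 0.05 in each comparison of genotypes and 0 to 3 called by DESeq2. Of all genes, 19.8% passed that unadjusted p in Pu.1-URE-/- against Wild-type and 18.5% in the double mutant against Wild-type. In the other comparisons of genotypes 10.5% to 16.9% did. The limma-voom fit called 1, in Pu.1-URE-/- against Wild-type. Calr, the gene of calreticulin, which is known to bind C/EBP mRNA, was at 692 ± 75.9 CPM in Pu.1-URE-/- and 460 ± 62.8 in Wild-type (log2 change 0.59 ± 0.18, edgeR adjusted p = 0.0870). Fbxw7, a ubiquitin ligase subunit, was at 15.7 ± 3.00 against 35.4 ± 12.5 CPM (0.112). Gsk3b, a kinase that phosphorylates C/EBP proteins, was at 626 ± 235 CPM in Mdmx-Tg and 313 ± 61.5 in Wild-type (0.367). Trib2, whose product directs C/EBPα protein to degradation, was at 94.3, 78.4 and 113 CPM in Wild-type and 2.45, 42.3 and 6.32 CPM in the double mutant, groups that did not overlap, as for 10.8% of genes that were lower (log2 change -2.48 ± 0.90, edgeR adjusted p = 0.174).

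None of the 12 receptors that signal to C/EBP factors was called by edgeR in any comparison. In Pu.1-URE-/- against Wild-type 6 had an unadjusted p under 0.05, against 19.8% of all genes. DESeq2 called 5 and limma-voom 2, as a description without a share of all genes. Apart from Csf3r, the lowest p there was that of Csf2rb, the shared β chain of cytokine receptors, at 15.0 ± 4.28 against 39.1 ± 19.0 CPM (log2 change -1.38 ± 0.42, edgeR adjusted p = 0.0904). The median log2 change of the list was -0.94, below that of all genes (-0.03), while that of Csf3r was above 0. In each of the other comparisons of genotypes 0 to 2 had an unadjusted p under 0.05 and DESeq2 called 0 to 1. Such a p was found for 10.5% to 18.5% of all genes there.

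The bZIP genes whose proteins can pair with C/EBP factors had 13 genes tested and no call by edgeR. In each comparison 0 to 1 were below an unadjusted p of 0.05, where 5.8% to 19.8% of all genes were. DESeq2 called 0 to 1 and limma-voom 0 to 1. Ddit3 (CHOP), which blocks C/EBP dimers from DNA, was at 21.1 ± 4.92 CPM in Pu.1-URE-/- and 33.1 ± 5.86 in Wild-type (log2 change -0.65 ± 0.35, adjusted p = 0.339). Atf4, a partner of C/EBPγ, was at 33.5 ± 2.42 CPM in the double mutant, 53.1 ± 4.67 in Pu.1-URE-/- (adjusted p = 0.406) and 55.3 ± 7.51 in Wild-type (0.107).

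The 13 amino acid and stress response genes, targets of Atf4 and its partners, had no call by edgeR. In each comparison of genotypes 1 to 4 were below an unadjusted p of 0.05 and DESeq2 called 0 to 3. Such a p was found for 10.5% to 19.8% of all genes there. Of the 4 tested genes that C/EBPα is known to repress, edgeR called none, at most 1 per comparison had an unadjusted p under 0.05, and DESeq2 called 1 in Pu.1-URE-/- against Wild-type. Myc was at 254 ± 17.3 CPM in Pu.1-URE-/- and 382 ± 62.4 in Wild-type (log2 change -0.59 ± 0.21, adjusted p = 0.149), and Sox4, a known target of repression, was at 58.4 ± 37.4 and 68.0 ± 5.59 CPM. In the double mutant Sox4 was at 133 ± 38.8 CPM (1.19 ± 0.41 against Pu.1-URE-/-, adjusted p = 0.406).

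Markers of other cells moved with the same contrast, and their part in the C/EBP results was not tested. Ly6g, a neutrophil surface gene of the lineage gate, was at 3.19 to 45.8 CPM in the 6 libraries without the element and had 0 reads in the 6 others. Nkg7 rose 22.6-fold and Mcpt8, a basophil protease gene, 9.18-fold in Pu.1-URE-/- against Wild-type (edgeR adjusted p = 0.000518 and 0.00371). Both were the only called genes of their lists, of 6 T cell and NK cell and 7 mast cell, basophil and eosinophil markers tested. In the T cell and NK cell list 5 genes had a log2 change above 0 (median 0.41). In the other list Mcpt8 alone did, and the median was -1.39. Ptprc fell 2.85-fold and Fcgr3 rose 7.99-fold, and neither is named in the stated sort. Summed levels in Wild-type and Pu.1-URE-/- were 82.6 to 532 and 642 to 752 CPM for the 10 monocyte and macrophage markers, where Csf1r was at 0 to 0.139 CPM in all 6 libraries without the element, and Ly6c2 alone was at 313 to 809 CPM there. They were 1971 to 2983 and 413 to 1128 CPM for 9 erythroid markers, 287 to 419 and 141 to 238 for 7 megakaryocyte markers, 420 to 486 and 201 to 340 for 10 stem cell markers and 33.7 to 81.1 and 25.7 to 48.3 for 7 dendritic cell markers. By edgeR, no gene of these 5 lists was called in this comparison, nor of the 7 mature B cell and plasma cell markers tested. In each list 0 to 4 had an unadjusted p under 0.05, against 19.8% of all genes, and DESeq2 called 0 to 3. With immunoglobulin genes left out of the fit, Cebpe was called in Mdmx-Tg/Pu.1-URE-/- against Mdmx-Tg (adjusted p = 0.0303) and against Wild-type (0.0416).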

How the data were processed

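RNA of Flk2- Lin-Sca-1+Kit+ cells, sorted from mouse bone marrow, was enriched for mRNA and sequenced with paired reads on the BGISEQ-500, per the labels' protocols. The submitters' processing notes name FastQC, Salmon, DESeq2, mm10 and GRCm38, with no versions. The deposited files hold, for each transcript, expected counts that the authors obtained by assigning reads with Salmon, as the file layout and these notes have it, and 35.3% of them are not whole. The deposited TPM per transcript stand beside them, per the file headers.

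Of 116248 transcripts, 115995 (99.8%) matched the GENCODE M21 annotation of GRCm38. The 253 others, with 0.0379% to 0.0841% of the reads, were dropped. The estimated counts of a gene's transcripts were added up and rounded, which leaves lengths of transcripts out of account in tests. TPM were summed per gene, and used where genes are compared with each other. The labels group the 12 libraries into 4 genotypes.

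Tests used edgeR 4.0.16 in R 4.3.3: filterByExpr (minimum count 10, total 15), TMM scaling and a quasi-likelihood fit of 12 libraries with a mean for each genotype, adjusted by Benjamini-Hochberg over 15012 genes at a threshold of 0.05. The biological coefficient of variation was 0.796. The pipeline was tested on simulated data. Correlations used log2 CPM with a prior count of 2, over protein-coding genes with a mean of at least 2. Tables and figures used Python 3.11.15.

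Alternatives were RLE factors, DESeq2 1.42.0, limma-voom (limma 3.58.1), testing every gene with a read, keeping genes over 1 CPM in 3 libraries, CPM per kilobase of effective length, only the groups compared, replicate and mouse-number blocks, a Y-linked covariate, immunoglobulin genes left out, 3 libraries doubted in earlier results left out together, and each library left out.

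The members and the 18 other gene lists were chosen with earlier results of these data known, as were the comparisons and alternatives. Named genes were the 5 members; of each list, up to 4 called members with the smallest p per comparison, or 2 where none was called; the 4 genes most like each member; and Mdm4, Spi1, Kit, Ly6a and Flt3. The text names a part of these. Outside that rule, genes that make up small counts or stand at 0 were named after their values were seen (Fcnb, Mmp8, Mmp9, Chil3, Bpi, Il6ra, Klf5, the promoter matches and Ddx3y). No proteins were printed, and sequences come from GENCODE transcripts and RefSeq promoters.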

Additional observations from a re-analysis of the deposited data

How the results depend on the processing

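The rise of Cebpa in Pu.1-URE-/- and in the double mutant against Wild-type was called under all 23 alternatives run. Other calls of the C/EBP genes depended on the setting, and the cause was not tested. The counts of listed genes that DESeq2 or limma-voom called were given above without a share of all genes, so they are descriptions. DESeq2 called 1881 genes in Pu.1-URE-/- against Wild-type, 1289 in the double mutant against Mdmx-Tg, 329 in each transgene comparison, 1547 in the double mutant against Wild-type and 194 for the interaction. It newly called Cebpd in Pu.1-URE-/- against Wild-type (log2 change 3.84), Cebpa (1.32) and Cebpe (7.26) in the double mutant against Mdmx-Tg, Cebpa in Mdmx-Tg against Wild-type (2.31), Cebpe in the double mutant against Wild-type (6.10) and Cebpa for the interaction (-3.15). Cebpe in the double mutant against Mdmx-Tg was also called with no filter (7.32), with CPM over 1 (7.31), with only the groups compared (7.26) and with immunoglobulin genes left out (7.28), which called it against Wild-type too (6.13). Only the groups compared also called Cebpd (3.86) and 1 gene in each transgene comparison. Limma-voom reversed Cebpb in the double mutant against Mdmx-Tg (1.65).

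Same-numbered libraries did not deviate together (r of deviations -0.153 to 0.086 over 18 pairs), so the replicate numbers pair nothing. The replicate block reversed Cebpb in the double mutant against Mdmx-Tg (0.65) and changed no call of a member. A block by series of mouse numbers left 257 genes called in Pu.1-URE-/- against Wild-type and 156 in the double mutant against Mdmx-Tg, ended the call of Cebpe in the first (7.88) and reversed Cebpb in the second (0.35) and Cebpd for the interaction (1.46). The Y-linked covariate left 95 genes in the double mutant against Mdmx-Tg and 178 against Wild-type. It reversed Cebpe in the double mutant against Pu.1-URE-/- (0.27), and Cebpe (1.25) and Cebpg (-0.04) for the interaction. Without the 3 doubted libraries 111, 1 and 147 genes were called in the double mutant against Mdmx-Tg, Pu.1-URE-/- and Wild-type. Cebpe in Pu.1-URE-/- against Wild-type then missed the threshold (9.81), and Cebpe in Mdmx-Tg against Wild-type (0.22) and Cebpg in the double mutant against Wild-type (-0.23) reversed.

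Leaving out each library gave 299 to 789 genes in Pu.1-URE-/- against Wild-type (299 without Wild-type 2), 136 to 347 in the double mutant against Mdmx-Tg (136 without Mdmx-Tg/Pu.1-URE-/- 1), 0 to 109 in Mdmx-Tg against Wild-type (109 without Mdmx-Tg 3), 0 to 4 in the double mutant against Pu.1-URE-/- (4 without Mdmx-Tg/Pu.1-URE-/- 2) and 162 to 565 against Wild-type (162 without Wild-type 2). Log2 changes of Cebpe ran from 7.55 to 9.82 in Pu.1-URE-/- against Wild-type, 6.66 to 7.76 in the double mutant against Mdmx-Tg (called without Wild-type 1 or 2), 5.59 to 7.79 against Wild-type (called without Mdmx-Tg 1) and -1.73 to 0.52 in Mdmx-Tg against Wild-type (0.52 without Wild-type 1). Cebpd in Pu.1-URE-/- against Wild-type ran from 3.00 to 4.53. Cebpb in the double mutant against Mdmx-Tg ran from -0.71 to 2.41 (2.41 without Mdmx-Tg 1). Cebpg ran from -0.02 to 0.70 for the interaction (-0.02 without Mdmx-Tg 3 or Mdmx-Tg/Pu.1-URE-/- 3) and from -0.04 to 0.59 in the double mutant against Wild-type (-0.04 without Mdmx-Tg/Pu.1-URE-/- 3). The 20 shares of summed TPM moved by less than the spread between libraries with CPM per kilobase in place of TPM. With 3 libraries per genotype and 0 to 3 reads of Cebpb in Wild-type, depth limits that gene most.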
